A study of Mus musculus with 32 samples.

Results

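A set of 10 genes encoding scavenger receptors of macrophages were described across the BMDM RNA-seq data. They are Msr1 and Marco (class A), Cd36, Scarb1 and Scarb2 (class B), Olr1, Cd163, Stab1, Mrc1 and Mertk, which are 10 of the 25067 genes in the count table. The members are a fixed list of names, set with earlier results of these data known, and each is represented by its RefSeq transcript with the highest mean count. BMDM-WT and BMDM-Nur77-KO are macrophages grown for 7 days in L929-conditioned medium from the bone marrow of male C57Bl6/J mice aged 6 to 12 weeks. Nur77-KO mice carry a whole-body deletion of the loxP-flanked Nr4a1 gene, which encodes the nuclear receptor Nur77. The deletion was made with a Cre driven by the human cytomegalovirus promoter, and it is therefore not limited to macrophages. According to the methods the animals were later bred to lack Cre, while the sample labels give this genotype as cre and the littermate genotype as wt. Each genotype was measured at 0 h (untreated) and after 1, 5 and 18 h of 100 ng/ml LPS, with 4 libraries per group, 8 groups and 32 libraries in all. The cells were seeded in 4 replicates, and the number of animals behind them is not given in the sources used here, so p-values may measure only the spread between cultures.

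Scavenger receptors are membrane proteins with little resemblance in sequence that share an affinity for modified lipoproteins, polyanions, microbial surfaces and dying cells. In macrophages they mediate endocytosis and phagocytosis, feed cholesterol and fatty acids into the cell and clear haemoglobin and matrix fragments. LPS, a component of the outer membrane of Gram-negative bacteria, activates macrophages through Toll-like receptor signalling and is known to raise some of these receptors and to lower others.

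All 10 genes passed the filter on low values, a group mean above 1 RPKM somewhere in the 8 groups. RPKM is the count per kilobase of transcript and per library size, the scale on which levels of different genes are compared here, and CPM, the count per library size without the length, is the scale on which 1 gene is compared between libraries. Both were scaled with TMM factors. Marco, Olr1 and Cd163 passed only through the groups in which they were high. Library totals were 8742362 to 15780926 counts. The deleted gene Nr4a1 was read in every library first. At 0 h it was at 19.2, 15.5, 25.5 and 18.1 CPM in BMDM-WT and at 4.88, 4.57, 4.42 and 6.92 CPM in BMDM-Nur77-KO, and at 1 h at 358 to 483 and 146 to 244 CPM. At 5 h it was at 0.806 to 1.06 and 0.108 to 0.690 CPM and at 18 h at 0.175 to 0.473 and 0 to 0.448 CPM. It was lower in BMDM-Nur77-KO at 0, 1 and 5 h without overlap, overlapped at 18 h, and still gave reads in the knockout. The sum of 10 macrophage marker genes was 10783 to 18545 CPM per library, against 19.5 to 63.7 for 10 neutrophil markers, 1.52 to 4.73 for 6 B cell markers, 0 to 1.89 for 6 fibroblast markers and 19.6 to 38.2 for 6 endothelial markers. In bulk RNA, fewer cells expressing a receptor and less RNA per cell cannot be told apart.

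A group of 3 libraries stood apart by the GC content of their transcripts, and they touch several results below. In BMDM-Nur77-KO they are replicate 1 at 5 h and replicate 4 at 18 h, and in BMDM-WT replicate 3 at 18 h. Across 11187 genes their log2 level relative to the other 3 libraries of their group changed by -0.73, -0.52 and -0.37 per 10 percentage points of GC, while the other libraries lay between -0.18 and 0.40. The highest slopes, 0.34 and 0.40, were those of replicates 3 and 4 of BMDM-Nur77-KO at 5 h, whose comparison includes replicate 1. Most of the receptors followed this order. In replicate 1 at 5 h, Msr1 (GC content 38.4%) was 0.73 above the mean of the other 3 libraries on the log2 scale, whereas Scarb1 (56.2%) and Stab1 (57.3%) deviated by -0.80 and -1.40. Marco (54.5%) did not follow it and was 0.53 above. Differences between genotypes are therefore also given after a correction of each library for its GC trend, which was chosen after seeing the data. At 0 h, where none of these 3 libraries enters, the genotype difference of all tested genes also had a slope of -0.21 per 10 percentage points of GC.

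**Figure D1:**
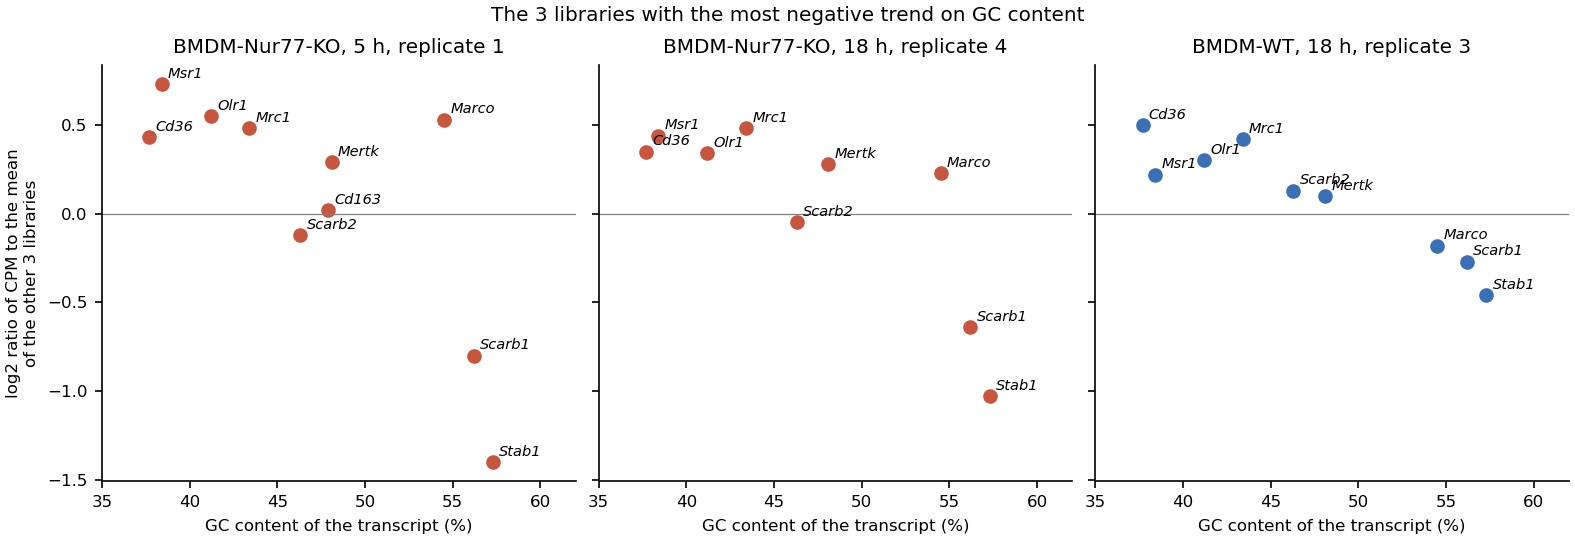
Log2 ratio of each receptor's CPM in 1 library to the mean of the other 3 libraries of its group (y axis) against the GC content of its transcript in percent (x axis), for the 3 libraries with the most negative trend. Cd163 is left out at 18 h, where it is near 0. Stab1 and Scarb1, the most GC-rich transcripts, are the lowest in each panel, with Stab1 at -1.40, -1.03 and -0.46.

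The promoters of Olr1, Marco and Stab1 are shown because these 3 genes differed between the genotypes at more than 1 time. Nur77 is known to bind DNA at an octamer called NBRE, and AP-1 and NF-kB are transcription factors activated by LPS. The sequences come from RefSeq on build GRCm38.p6 and span 250 bases before to 50 bases after an annotated start, written 5′ to 3′ along the gene. Capitals mark matches to AAAGGTCA (NBRE), TGANTCA (AP-1), GGANTTTCC (NF-kB) or TGACNNNGC (NRF2 element), searched on both strands with N as any base. The table held promoters for 8 of the 10 genes and none for Msr1 and Scarb1.
Olr1, chr6:129507116-129507415, minus strand: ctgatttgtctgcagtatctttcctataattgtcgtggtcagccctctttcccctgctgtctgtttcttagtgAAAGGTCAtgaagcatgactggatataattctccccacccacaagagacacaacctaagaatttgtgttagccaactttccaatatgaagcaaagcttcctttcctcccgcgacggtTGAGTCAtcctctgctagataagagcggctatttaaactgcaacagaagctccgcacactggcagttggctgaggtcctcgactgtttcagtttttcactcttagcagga
Marco, chr1:120504975-120505274, minus strand: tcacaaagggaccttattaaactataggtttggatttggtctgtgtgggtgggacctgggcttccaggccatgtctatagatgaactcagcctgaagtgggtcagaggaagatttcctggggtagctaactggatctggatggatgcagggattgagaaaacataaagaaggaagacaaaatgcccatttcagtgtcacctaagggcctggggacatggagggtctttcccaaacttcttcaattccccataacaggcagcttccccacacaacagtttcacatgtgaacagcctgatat
Stab1, chr14:31168592-31168891, minus strand: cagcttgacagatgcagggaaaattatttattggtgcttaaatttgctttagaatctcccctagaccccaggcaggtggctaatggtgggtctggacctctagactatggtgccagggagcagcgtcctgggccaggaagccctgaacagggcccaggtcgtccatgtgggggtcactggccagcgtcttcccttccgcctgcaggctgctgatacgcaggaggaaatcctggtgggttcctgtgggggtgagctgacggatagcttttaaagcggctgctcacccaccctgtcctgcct
Olr1 held AAAGGTCA at position -177 relative to the start, on the gene's strand, and TGAGTCA at position -60. The pattern TGANTCA reads the same on both strands, so its matches have no strand. Its start used here lies inside the outermost annotated end of the gene, which has 3 transcripts in the count table. Marco and Stab1 held none of the 4 motifs in these windows, nor did Cd36, Cd163, Mrc1 and Mertk. The window of Cd36 (chr5:17835847-17836146, minus strand) lies far inside the gene's outermost annotated end at 17888959, and other starts of this gene were not searched. Scarb2 (chr5:92505608-92505907, minus strand) held TGACCGCGC at position -99. Among all 32851 promoters of the table, 1.51% held the NBRE, 7.81% the AP-1 motif, 1.25% the NF-kB motif and 12.4% the NRF2 element.

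LPS moved most of the receptors, in opposite directions and on different schedules. Calls were made with edgeR's quasi-likelihood test and required a Benjamini-Hochberg adjusted p under 0.05 over the 11187 genes tested together with a size limit on the log2 scale, 1 for LPS and 0.58 for genotype. In BMDM-WT at 1 h, 1 receptor was called higher and 0 lower, beside 3.46% and 1.64% of all tested genes. In BMDM-Nur77-KO at 1 h the counts were likewise 1 and 0, beside 3.30% and 1.22%. At 5 h, 4 were called higher and 1 lower in BMDM-WT (16.1% and 17.4% of all genes), and 4 higher and 2 lower in BMDM-Nur77-KO (16.5% and 15.9%). At 18 h, 4 were called higher and 4 lower in BMDM-WT (13.4% and 14.0%), and 4 higher and 5 lower in BMDM-Nur77-KO (15.9% and 15.8%). From 5 to 18 h, 1 was called higher and 4 lower in each genotype (15.6% and 14.5% of all genes in BMDM-WT, 14.3% and 14.3% in BMDM-Nur77-KO). Scaled by library totals, which moved the median of all genes by -0.64 and -0.63 at 5 h, 2 were called higher and 3 lower in BMDM-WT and 3 and 4 in BMDM-Nur77-KO at 5 h. At 18 h that scaling moved the median by -0.37 and -0.46 and gave 3 and 5 in each genotype. At 1 h, Cd36 in BMDM-WT was the other receptor past the adjusted p, under the limit. All comparisons with 0 h within a genotype share its 4 untreated libraries.

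Between the genotypes, the differences were fewer. At 0 h, Marco, Olr1 and Cd36 were called higher and Stab1 lower in BMDM-Nur77-KO, 3 and 1 of 10, beside 2.33% and 2.49% of all tested genes. The neutrophil marker sum was also at 35.2 to 43.3 CPM in BMDM-Nur77-KO against 25.9 to 38.9 CPM in BMDM-WT at 0 h, with 2 of 5 tested markers called higher. At 1 h 1 receptor was called higher, Marco, and 0 lower (1.47% and 1.35%). The neutrophil marker sum was there at 52.4 to 63.7 against 37.7 to 48.7 CPM, without overlap and again with 2 of 5 called higher, and its part in the differences at 0 and 1 h was not tested. At 5 h Marco was called higher and Stab1 lower, 1 and 1 (5.44% and 3.16%). At 18 h Olr1, Marco and Mertk were called higher and Stab1 lower, 3 and 1 (5.87% and 3.95%), or 3 and 2 when scaled by library totals, with Scarb1 at -0.64. The median log2 fold change of the 10 receptors was 0.08, 0.06, 0.21 and 0.13 at the 4 times, and the medians of all tested genes lay between -0.03 and 0.02. The difference in LPS response between the genotypes was tested as an interaction, with a call at an adjusted p under 0.05. It was called for 0 receptors at 1 h and at 5 h (0.0626% and 3.14% of all genes) and for 1 at 18 h, Mertk (9.46%). By edgeR's unadjusted p, Cd36 (0.0079) and Olr1 (0.033) were under 0.05 at 1 h, as were Mertk (0.019) and Msr1 (0.039) at 5 h, and DESeq2 also called 0 at both times. When only the 4 groups compared entered the fit, 2 were called at 1 h.

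**Figure D2:**
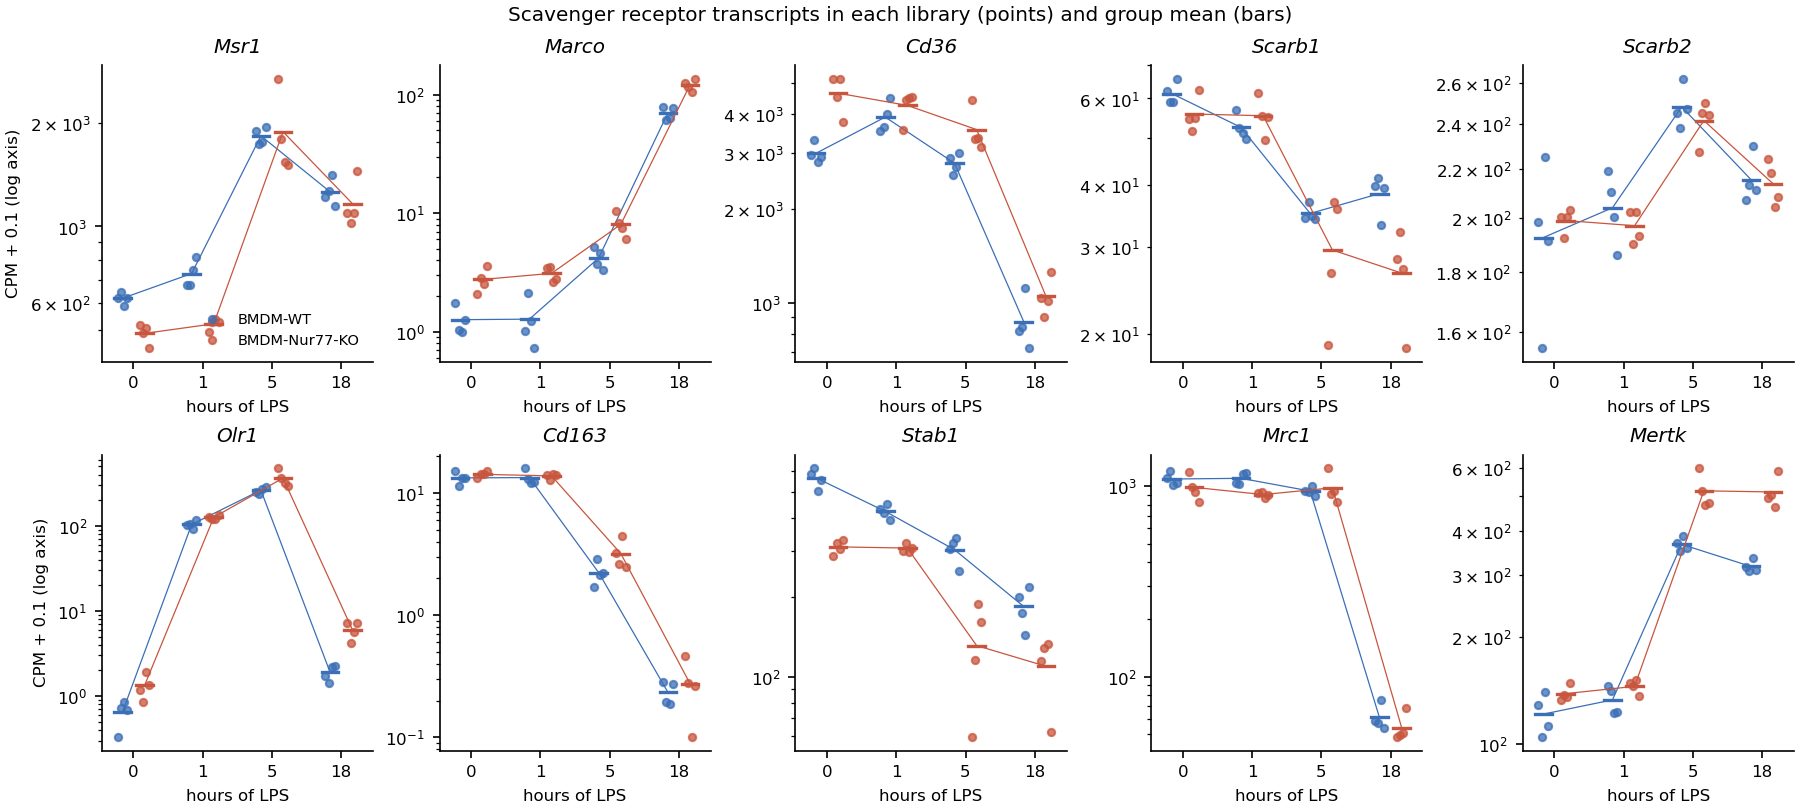
CPM plus 0.1 on log axes (y) at each time of LPS (x, categories) for the 10 receptors, 1 panel each. Points are libraries, bars are group means (n = 4) and lines join the means of a genotype. Olr1 is highest at 5 h and Marco at 18 h, while Cd163, Mrc1 and Cd36 are lowest at 18 h in both genotypes.

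Among the class A receptors, Msr1 (NM_031195, chr8:39543232-39642750), a trimeric receptor for modified LDL and bacteria, rose with LPS in both genotypes. In BMDM-WT it was at 621, 645, 589 and 621 CPM at 0 h, at 1886, 1734, 1758 and 1944 CPM at 5 h and at 1220, 1263, 1412 and 1144 CPM at 18 h. The 3 groups did not overlap. The log2 fold change from 0 h was 1.56 ± 0.13 (SE) at 5 h (adjusted p = 2.3e-12) and 1.03 ± 0.12 at 18 h (adjusted p = 1.8e-08). In BMDM-Nur77-KO, Msr1 rose from 444 to 518 CPM at 0 h to 1509 to 2680 CPM at 5 h (log2 fold change 1.94 ± 0.13, adjusted p = 1.9e-14) and 1024 to 1451 CPM at 18 h (1.25 ± 0.13, adjusted p = 3.0e-10). Before stimulation all 4 knockout libraries, at 518, 490, 507 and 444 CPM, were below all 4 of BMDM-WT. The log2 difference was -0.34 ± 0.12 at 0 h (adjusted p = 0.071) and -0.48 ± 0.12 at 1 h (adjusted p = 0.013), where the groups did not overlap either and the size was under the limit. With the GC correction the rise of 1.03 in BMDM-WT at 18 h was 0.93, and without replicate 3 of that group 0.97, both under the limit. Scaled by library totals it was 0.65 at 18 h and 0.92 at 5 h. The genotype differences with the GC correction were -0.65 ± 0.08 (adjusted p = 1.2e-06), -0.35, -0.33 and -0.33 at 0, 1, 5 and 18 h, against 0.04 and -0.11 at 5 and 18 h without it. The corrected values at 1, 5 and 18 h passed the adjusted p (0.0060, 0.0040 and 0.0031) but not the limit. Msr1 has another transcript in the table (NM_001113326), with which it shares reads, at 56.5% to 70.4% of the kept one by group mean.

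Marco (NM_010766, chr1:120474538-120505024), a collagenous receptor that binds bacteria and particles, had the steepest late rise. It was at 0.900 to 1.66 CPM in BMDM-WT at 0 h, from 12 to 22 counts per library, at 5.06, 3.6, 4.50 and 3.19 CPM at 5 h, and at 78.5, 60.9, 63.8 and 77.1 CPM at 18 h. In BMDM-Nur77-KO it was at 1.99, 2.75, 2.44 and 3.46 CPM at 0 h, at 10.3, 8.20, 7.34 and 5.91 CPM at 5 h and at 126, 115, 106 and 136 CPM at 18 h. The knockout libraries were above all libraries of BMDM-WT at each of the 4 times. From 0 to 18 h the log2 fold change was 5.92 ± 0.21 in BMDM-WT (adjusted p = 3.0e-21) and 5.49 ± 0.19 in BMDM-Nur77-KO (adjusted p = 1.3e-21). The genotype difference was 1.22 ± 0.26 at 0 h (adjusted p = 0.0020), 1.29 ± 0.26 at 1 h (adjusted p = 0.0014), 0.95 ± 0.21 at 5 h (adjusted p = 0.0015) and 0.78 ± 0.14 at 18 h (adjusted p = 8.8e-05). It was 1.34, 1.25, 1.12 and 0.91 with the GC correction, and it was called in every fit that left out 1 library. Its interaction at 18 h was -0.43 ± 0.30 (adjusted p = 0.46), so the data do not resolve whether the gap narrowed.

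Of the class B receptors, Cd36 (NM_007643, chr5:17781690-17888959), which takes up oxidised LDL and long-chain fatty acids, was the most abundant receptor per transcript length in every group but BMDM-WT at 18 h. It stood at 2964, 3298, 2812 and 2914 CPM in BMDM-WT and 5177, 4526, 5149 and 3775 CPM in BMDM-Nur77-KO at 0 h, without overlap. The log2 difference was 0.64 ± 0.13 (adjusted p = 9.3e-04). With the GC correction it was 0.29 ± 0.09 (adjusted p = 0.027), under the limit, and Cd36 has the lowest GC content of the 10 transcripts, 37.7%. At 1, 5 and 18 h the difference was 0.12, 0.35 and 0.27, of which 5 h passed the adjusted p (0.043) but not the limit, and with the correction 0.27, 0.00 and 0.06. LPS lowered Cd36 late. At 18 h it was at 816, 840, 1117 and 719 CPM in BMDM-WT and at 1036, 906, 1012 and 1259 CPM in BMDM-Nur77-KO, below all earlier libraries of both genotypes. The log2 fold change from 0 h was -1.78 ± 0.13 (adjusted p = 3.3e-13) and -2.14 ± 0.13 (adjusted p = 3.8e-15). At 1 h, Cd36 was 0.38 ± 0.13 above 0 h in BMDM-WT (adjusted p = 0.032, under the limit) and -0.13 ± 0.13 from it in BMDM-Nur77-KO, an interaction of -0.51 ± 0.18 that did not pass (adjusted p = 0.43). With the GC correction the difference in BMDM-WT was 0.12 (adjusted p = 0.42) and the interaction -0.02.

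Scarb1 (NM_016741, chr5:125277087-125341094), the HDL receptor of selective cholesteryl ester uptake, was at 58.8 to 65.7 CPM in BMDM-WT at 0 h and at 51.4 to 62.3 CPM in BMDM-Nur77-KO. At 18 h it was at 39.7, 41.2, 33.2 and 39.4 CPM in BMDM-WT and at 28.2, 32.0, 27.0 and 18.6 CPM in BMDM-Nur77-KO. The 2 groups did not overlap, and replicate 4 of the knockout and replicate 3 of BMDM-WT, both among the GC-shifted libraries, were the lowest of their groups. From 0 to 18 h the log2 fold change was -1.07 ± 0.14 in BMDM-Nur77-KO (adjusted p = 6.1e-08), and without replicate 4 at 18 h it was -0.94, which is under the limit. In BMDM-WT the log2 difference from 0 h was -0.68 ± 0.14 (adjusted p = 7.9e-05), also under the limit. Scarb1 was already lower at 5 h, by -0.81 ± 0.14 in BMDM-WT (adjusted p = 7.1e-06) and -0.92 ± 0.14 in BMDM-Nur77-KO (adjusted p = 1.1e-06), both under the limit. Leaving out 1 library gave -1.04 to -0.76 in BMDM-Nur77-KO, with a call in 2 of 8 fits. From 5 to 18 h the differences were 0.13 and -0.16, neither of which passed. With the GC correction they were -0.08 and -0.45, and the latter passed the adjusted p (2.6e-06) but not the limit. The genotype difference at 18 h was -0.54 ± 0.14 (adjusted p = 0.0057, under the limit) and -0.44 ± 0.07 with the GC correction (adjusted p = 1.5e-05). With 1 library left out it was -0.64 to -0.40. It was called in 2 of these 8 fits, without replicate 2 of BMDM-Nur77-KO or replicate 3 of BMDM-WT. The interaction at 18 h was -0.40 ± 0.20 (adjusted p = 0.24), and with the correction -0.47 ± 0.10 (adjusted p = 8.8e-04).

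Scarb2 (NM_007644, chr5:92441311-92505657), a lysosomal membrane protein that carries glucocerebrosidase, was the flattest of the 10 genes. Its group means spanned 192 to 248 CPM, a ratio of 1.29, and neighbouring groups in the order of levels all overlapped. No comparison called it. The differences farthest from 0 were at 5 h, 0.37 ± 0.08 from 0 h in BMDM-WT (adjusted p = 8.1e-05) and 0.28 ± 0.08 in BMDM-Nur77-KO (adjusted p = 0.0016), and they became -0.27 and -0.35 when counts were scaled by library totals instead of TMM. That scaling moved the median of all tested genes by -0.64 and -0.63 in these comparisons. Genotype differences of Scarb2 were -0.05 to 0.05 at the 4 times, each with an SE of 0.08.

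Olr1 (NM_138648, chr6:129479150-129507350), a lectin-like receptor of oxidised LDL, had the fastest and widest response. In BMDM-WT it was at 0.227, 0.625, 0.750 and 0.578 CPM at 0 h, from 3 to 12 counts per library, at 102, 106, 90.8 and 116 CPM at 1 h, at 253, 239, 274 and 285 CPM at 5 h and back at 1.64, 1.32, 2.1 and 2.14 CPM at 18 h. In BMDM-Nur77-KO it was at 1.09, 0.751, 1.83 and 1.26 CPM at 0 h, at 128, 121, 120 and 134 CPM at 1 h, at 479, 369, 317 and 293 CPM at 5 h and at 7.17, 4.09, 5.49 and 7.05 CPM at 18 h. The knockout libraries were above those of BMDM-WT at every time, by the narrowest margin at 0 h (0.751 against 0.750 CPM). In BMDM-WT the log2 fold change from 0 h was 7.52 ± 0.23 at 1 h (adjusted p = 2.7e-22), 8.87 ± 0.23 at 5 h (adjusted p = 1.3e-24) and 1.69 ± 0.33 at 18 h (adjusted p = 4.7e-05). In BMDM-Nur77-KO it was 6.68 ± 0.21, 8.22 ± 0.21 and 2.28 ± 0.24. The low counts at 0 h make the size of these folds uncertain. From 5 to 18 h the log2 fold change was -7.17 ± 0.20 in BMDM-WT and -5.93 ± 0.18 in BMDM-Nur77-KO, and the difference between these values was not tested on its own. At 18 h it was 1.71 ± 0.23 higher in the knockout (adjusted p = 9.7e-07) and 1.57 with the GC correction. At 0 h it was 1.12 ± 0.35 higher (adjusted p = 0.031), a call that was lost in 4 of the 8 fits that left out 1 library, with an adjusted p of up to 0.17. These were the fits without replicate 1 or 3 of BMDM-Nur77-KO and replicate 1 or 4 of BMDM-WT. At 1 and 5 h the differences were 0.28 ± 0.14 (adjusted p = 0.29) and 0.47 ± 0.14 (adjusted p = 0.015), both under the limit. With the GC correction they were 0.37 (adjusted p = 0.0068) and 0.20 (adjusted p = 0.092), also under the limit.

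Mrc1 and Cd163, receptors of resting and alternatively activated macrophages, were far lower after 18 h of LPS, where Cd163 was nearly lost and Mrc1 was not. Mrc1 (NM_008625, chr2:14229414-14332023) is the mannose receptor, an endocytic lectin for mannosylated glycoproteins. It was at 1109, 1198, 1016 and 1041 CPM at 0 h, at 949, 936, 997 and 890 CPM at 5 h and at 58, 57.1, 74.9 and 53.3 CPM at 18 h in BMDM-WT. In BMDM-Nur77-KO it was at 825 to 1190, 824 to 1247 and 47.8 to 68.4 CPM at the same times. At 5 h the differences from 0 h were -0.21 and -0.01, neither of which passed. From 5 to 18 h Mrc1 fell in both genotypes, with log2 fold changes of -3.95 ± 0.14 (adjusted p = 4.5e-21) and -4.19 ± 0.14 (adjusted p = 1.7e-21). The genotype differences were -0.14, -0.28, 0.06 and -0.18 at 0, 1, 5 and 18 h, none of which passed, and -0.29, -0.22, -0.14 and -0.26 with the GC correction, where 0, 1 and 18 h passed the adjusted p (0.0027, 0.026 and 0.0057) but not the limit.

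Cd163 (NM_001170395, chr6:124304636-124330529) takes up complexes of haemoglobin and haptoglobin. It was at 15.1, 11.4, 13.1 and 13.1 CPM in BMDM-WT and 13.2, 14.1, 14.1 and 15.0 CPM in BMDM-Nur77-KO at 0 h and was at 11.9 to 15.9 CPM at 1 h. At 5 h it had fallen to 1.61, 2.76, 2.02 and 2.13 CPM in BMDM-WT (log2 fold change -2.62 ± 0.18, adjusted p = 9.5e-14) and to 3.12, 2.51, 4.35 and 2.37 CPM in BMDM-Nur77-KO (-2.20 ± 0.17, adjusted p = 7.5e-13). At 18 h it had 1 or 2 counts per library in BMDM-WT and 0 to 4 in BMDM-Nur77-KO. The summed level at 0 h was 96.6 times that at 18 h in BMDM-WT (95% exact interval 44.2 to 264) and 86.3 times in BMDM-Nur77-KO (43.6 to 201), intervals that cover counting error only. At 5 h the genotype difference was 0.53 ± 0.22 (adjusted p = 0.075), and at 18 h the counts were too low to compare the genotypes.

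Stab1 (NM_138672, chr14:31139017-31168651), an endocytic receptor that clears acetylated LDL and matrix proteins, was called lower in BMDM-Nur77-KO at 0, 5 and 18 h. In BMDM-WT it was at 585, 616, 504 and 557 CPM at 0 h, 431, 418, 449 and 391 CPM at 1 h, 303, 321, 335 and 251 CPM at 5 h and 200, 175, 144 and 219 CPM at 18 h. In BMDM-Nur77-KO it was at 286, 320, 305 and 329 CPM at 0 h, 300, 322, 297 and 308 CPM at 1 h, 59.0, 116, 189 and 161 CPM at 5 h and 115, 129, 133 and 61.6 CPM at 18 h. Every knockout library lay below every BMDM-WT library of its time, and the unstimulated knockout was in the range of BMDM-WT after 5 h of LPS. The genotype difference was -0.87 ± 0.21 at 0 h (adjusted p = 0.0057), -0.46 ± 0.21 at 1 h (adjusted p = 0.25), -1.20 ± 0.22 at 5 h (adjusted p = 1.9e-04) and -0.75 ± 0.21 at 18 h (adjusted p = 0.010). With the GC correction it was -0.68, -0.53, -1.05 and -0.67, and the value at 1 h passed the adjusted p (0.0041) but not the limit. At 5 h the macrophage marker sum was also lower in BMDM-Nur77-KO, at 12382 to 15087 against 15194 to 16778 CPM. Of its 9 tested markers 2 were called lower, beside 3.16% of all genes. The endothelial sum was lower there too, at 20.0 to 24.6 against 27.3 to 32.1 CPM. Of its 3 tested markers Kdr was called lower (-1.28), and Pecam1 (-0.05) and Stab2 (0.58) were not called. The same sum was higher in the knockout at 1 h, at 26.6 to 35.2 against 19.6 to 24.8 CPM, and overlapped at 0 h. The part of these markers in the difference of Stab1 was not tested. The lowest knockout libraries at 5 and 18 h were the GC-shifted ones. Without replicate 4 of BMDM-Nur77-KO the difference at 18 h was -0.56 with an adjusted p of 0.053. With only the 2 groups compared in the fit, the difference at 5 h was -1.20 with an adjusted p of 0.062. From 0 to 18 h the log2 fold change was -1.62 ± 0.22 in BMDM-WT (adjusted p = 1.1e-07) and -1.5 ± 0.22 in BMDM-Nur77-KO (adjusted p = 3.7e-07). At 5 h the value of -1.24 in BMDM-Nur77-KO was -1.0 without replicate 1 of that group and -0.97 with the GC correction, both under the limit.

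Mertk (NM_008587, chr2:128698915-128803162), a receptor tyrosine kinase that engages dying cells through the bridging ligands Gas6 and protein S, was the 1 receptor whose interaction of genotype and LPS passed. At 0 h it was at 128, 104, 140 and 112 CPM in BMDM-WT and 133, 137, 135 and 148 CPM in BMDM-Nur77-KO, which overlapped. At 5 h it was at 368, 351, 385 and 358 CPM against 601, 519, 472 and 480 CPM, and at 18 h at 315, 307, 334 and 310 CPM against 494, 504, 467 and 591 CPM, both without overlap. From 0 to 18 h it rose by 1.39 ± 0.09 in BMDM-WT (adjusted p = 1.3e-14) and by 1.89 ± 0.09 in BMDM-Nur77-KO (adjusted p = 6.1e-18), and the interaction was 0.50 ± 0.12 (adjusted p = 0.0067) and 0.53 ± 0.10 with the GC correction (adjusted p = 4.5e-04). At 5 h the interaction was 0.31 ± 0.12 (adjusted p = 0.21). The genotype difference was 0.50 ± 0.09 at 5 h (adjusted p = 1.4e-04, under the limit) and 0.70 ± 0.09 at 18 h (adjusted p = 3.3e-07). The summed level of 6 dendritic cell markers overlapped at 5 h, at 14.8 to 20.0 CPM in BMDM-WT and 13.1 to 27.0 in BMDM-Nur77-KO. There Ccr7, at no more than 3 counts per knockout library, was called lower (-2.30). At 18 h that sum also differed, at 6.69 to 8.30 CPM in BMDM-WT and 18.9 to 24.1 CPM in BMDM-Nur77-KO. All 3 tested markers were called higher, beside 5.87% of all genes. These were Clec9a (1.79), Ccr7 (1.6) and Xcr1 (0.88), of which Xcr1 overlapped between the genotypes. All 3 also rose from 0 to 18 h in BMDM-WT (3.13, 3.14 and 2.56). Flt3 and Cd209a were at or near 0 in both genotypes. Zbtb46 had at most 3 counts per library in BMDM-WT and a mean of 0.195 CPM in BMDM-Nur77-KO. The macrophage marker sum was 13962 to 14498 CPM and 10783 to 12363 CPM there. In BMDM-Nur77-KO 2 of its 9 tested markers were called lower, beside 3.95% of all genes. The part of these markers in the differences of Mertk, Olr1, Marco and Stab1 at 18 h was not tested.

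**Figure D3:**
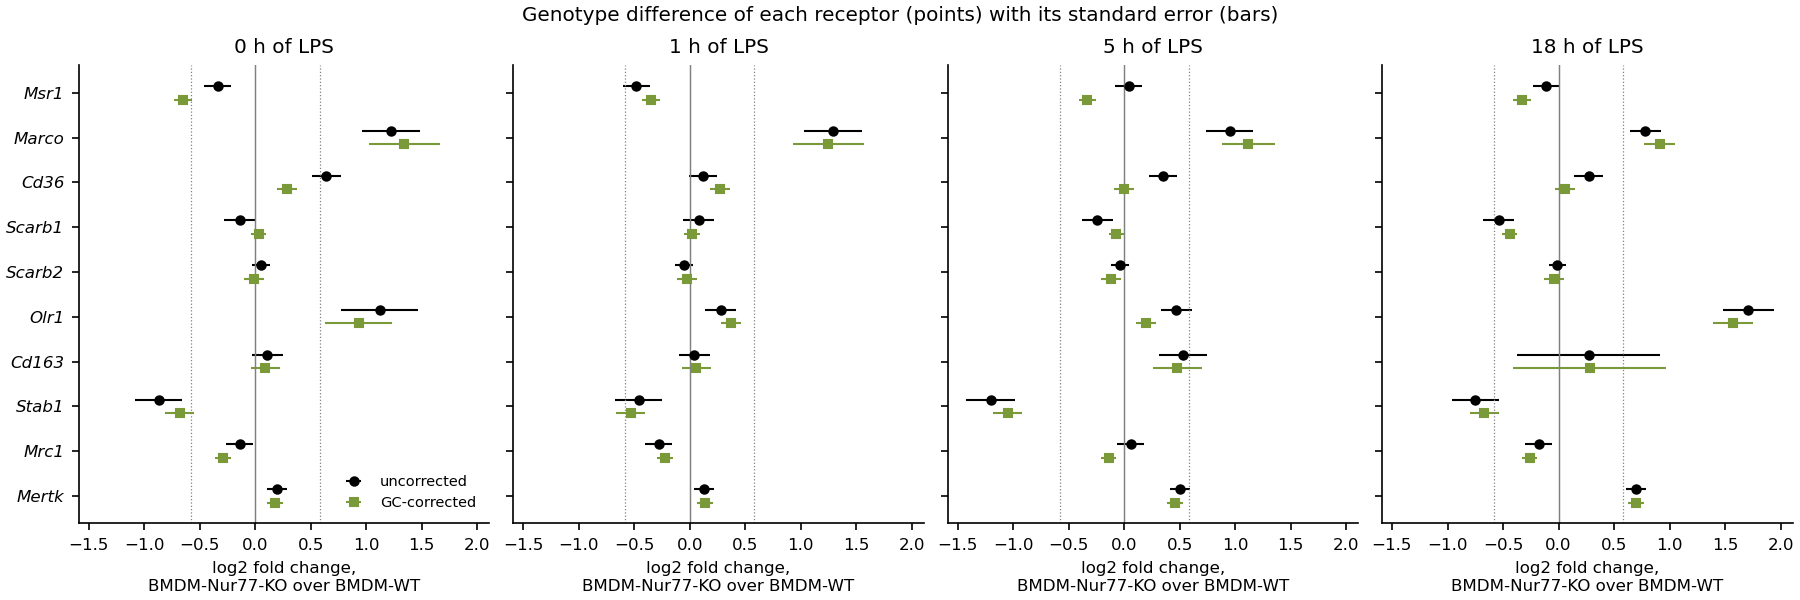
Log2 fold change of BMDM-Nur77-KO over BMDM-WT (x) for each receptor (y) at 4 times of LPS, uncorrected (circles) and corrected for the GC trend of each library (squares), with standard errors. Dotted lines are the limit of 0.58 either way. Marco lies to the right and Stab1 to the left of 0 at every time in both fits, and Msr1 shifts left with the correction at 0, 5 and 18 h.

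**Figure D4:**
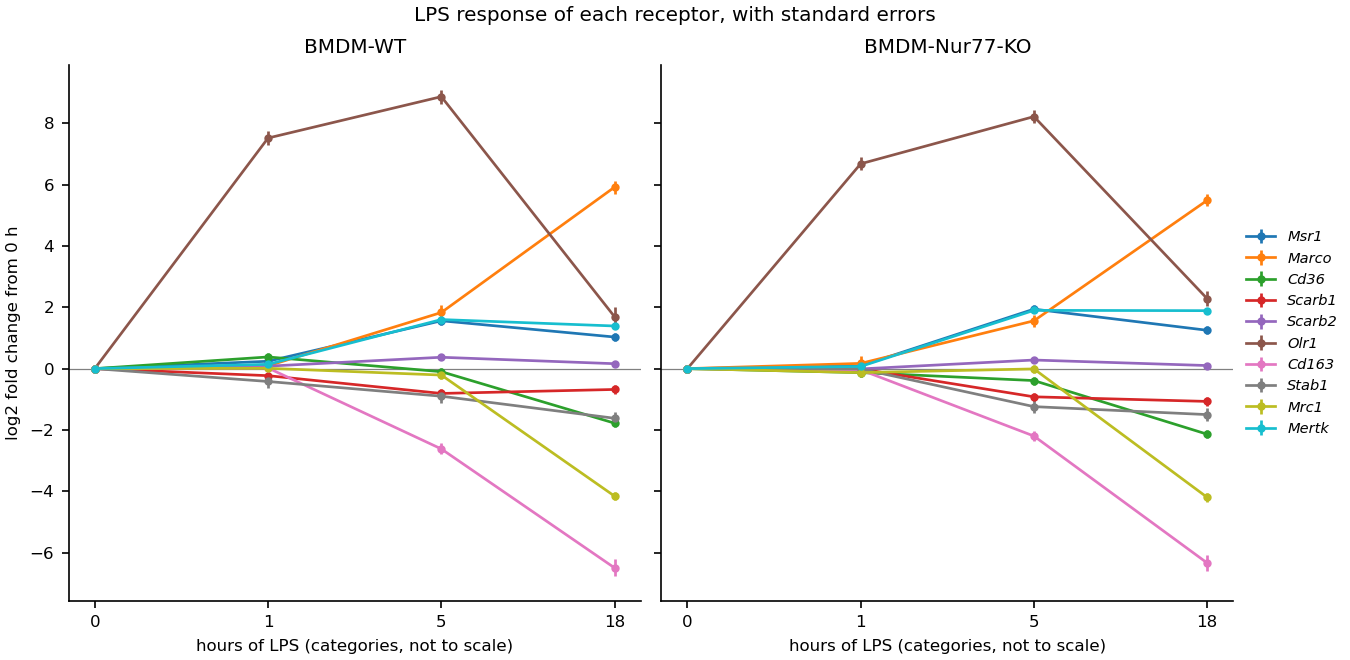
Log2 fold change from 0 h (y) at 1, 5 and 18 h of LPS (x, categories) for each receptor in BMDM-WT and BMDM-Nur77-KO, with standard errors from the fit. Olr1 peaks at 5 h at 8.87 and 8.22, Marco reaches 5.92 and 5.49 at 18 h, and Mrc1 and Cd163 end lowest. The fitted values of Cd163 at 18 h rest on 0 to 4 counts per library.

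The makeup of the receptor pool per transcript length, given as a description with no test, shifted with these changes. The RPKM of the 10 kept transcripts summed in BMDM-WT to 1535 ± 86.4 before LPS (SD, n = 4) and to 1881 ± 167, 1869 ± 90.2 and 842 ± 85.8 after 1, 5 and 18 h. In BMDM-Nur77-KO the sums were 2003 ± 243, 1899 ± 157, 2189 ± 401 and 933 ± 113. Cd36 made up 64.7% ± 0.957 of the sum in BMDM-WT and 77.0% ± 1.84 in BMDM-Nur77-KO at 0 h, and 34.2% ± 3.09 and 37.3% ± 1.20 at 18 h. Msr1 went from 11.1% and 6.76% at 0 h to 41.2% ± 0.784 and 34.2% ± 1.49 at 18 h, and was there the largest component in BMDM-WT. Mrc1 went from 13.2% and 9.16% to 1.34% and 1.07%. Mertk made up 8.78% in BMDM-WT and 12.8% in BMDM-Nur77-KO at 18 h, and Marco 4.38% ± 0.876 and 6.74% ± 0.475.

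**Figure D5:**
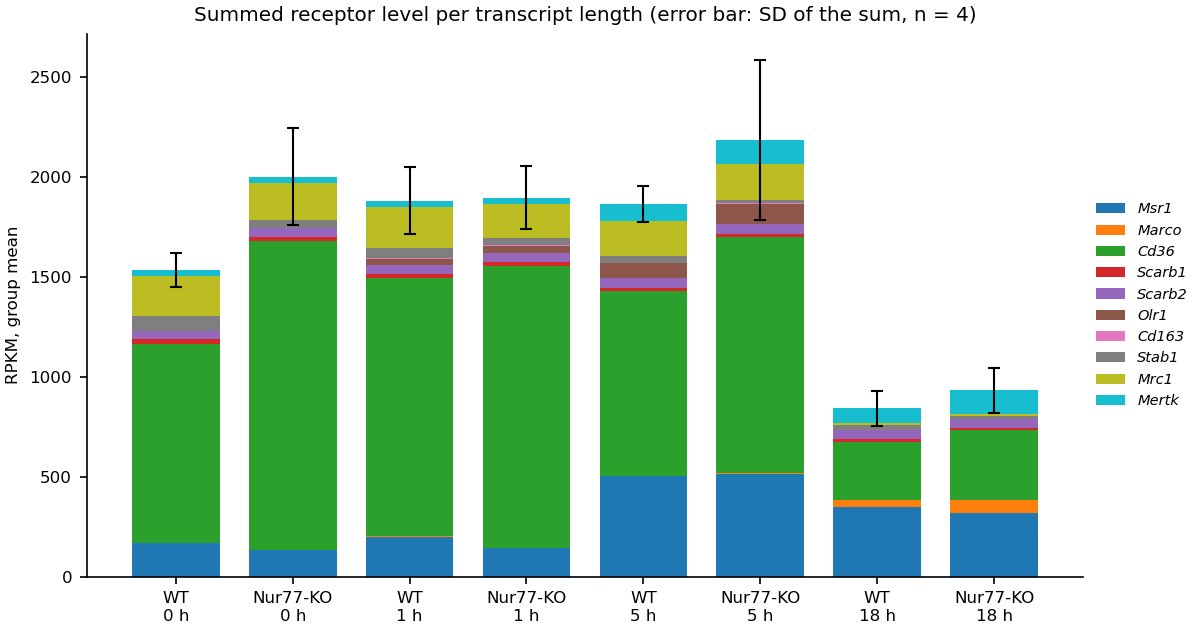
Stacked group mean RPKM of the 10 receptors (y) in each genotype and time (x). Error bars are the SD of the sum over 4 libraries. Cd36 is the largest part at 0, 1 and 5 h, and the sums at 18 h, 842 in BMDM-WT and 933 in BMDM-Nur77-KO, are below those of the earlier times.

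The genes closest to each receptor were sought by Pearson's r of log2 CPM over all 32 libraries, which share the 8 groups, so that r mostly follows the time course and carries no p. The nearest genes of Olr1 were Rel, Rabgef1 and Il1bos (r = 0.982, 0.977 and 0.975). Il1bos is antisense to Il1b, and without stated use of strand its reads cannot be told apart from those of Il1b. Those of Marco included Plpp1 and Ctsz (0.973 and 0.969), of Msr1 Fndc3a, Mndal and Cpd (0.977, 0.976 and 0.973) and of Mertk Ifi214, Il18 and Rufy3 (0.984, 0.982 and 0.982). Cd36 was nearest to Stap1, Tfrc and Spp1 (0.991, 0.990 and 0.987), Mrc1 to Vcl, Slc9a9 and Dock1 (0.995, 0.994 and 0.993) and Cd163 to Lbr, Hadh and Plk1 (0.985, 0.982 and 0.982). Scarb1 was nearest to Rab11fip5, Dcaf7 and Nckipsd (0.982, 0.969 and 0.968) and Stab1 to Tmem147, Ap1b1 and Plpp2 (0.947, 0.946 and 0.946). Scarb2 had the weakest partners, Poglut1, Stat5b and Nckap1l (0.873, 0.871 and 0.862). Among the receptors themselves, Cd36 and Mrc1 ran most alike (0.95) and Marco ran opposite to Mrc1 and to Cd163 (-0.94 for each).

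Other genes of scavenging and uptake, in lists chosen with earlier results of these data known, were counted by the same rule. Of 17 further scavenger receptors, 8 were tested. From 0 to 18 h in BMDM-WT 4 of these were called higher and 2 lower (13.4% and 14.0% of all genes). Cxcl16, a membrane chemokine that binds oxidised lipids, rose by 2.74 ± 0.10 on the log2 scale (adjusted p = 1.3e-20), at 83.3 ± 12.5 CPM before and 555 ± 34.2 CPM after, and Ssc5d by 2.08 ± 0.24. Stab2, the paralogue of Stab1 that is also on the endothelial marker list, fell from 20.7 ± 2.75 to 1.93 ± 0.232 CPM (-3.42 ± 0.18, adjusted p = 1.8e-16) and Colec12 had a log2 fold change of -2.04 ± 0.12. Between the genotypes at 18 h, where 5.87% and 3.95% of all genes were called, 0 were called higher and 1 lower, Lrp1, a large endocytic receptor, at -0.66 ± 0.18 (adjusted p = 0.0083).

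Of 18 genes of apoptotic cell uptake, 16 were tested, and from 0 to 18 h in BMDM-WT 1 was called higher and 7 lower (13.4% and 14.0% of all genes), with a median log2 fold change of -0.98. The ligand Gas6 of Mertk fell from 322 ± 11.6 to 53.9 ± 3.62 CPM (-2.58 ± 0.11, adjusted p = 1.2e-18), Dock1, which activates Rac during engulfment, had -2.32 ± 0.10, and Tyro3, at 0 to 2 counts per library at 18 h, was also called lower. Axl, a TAM receptor like Mertk, rose by 1.19 ± 0.13 (adjusted p = 1.0e-09). In the knockout at 18 h 2 were called higher and 0 lower (5.87% and 3.95%), Timd4, a phosphatidylserine receptor, at 0.873 ± 0.150 and 3.04 ± 0.651 CPM (log2 difference 1.78 ± 0.34, adjusted p = 2.2e-04), and Thbs1, a ligand of Cd36 (0.94 ± 0.17, adjusted p = 1.3e-04). Thbs1 had been called lower in the knockout at 0 and 1 h (-0.87 and -1.04).

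All 13 genes of lipid handling after uptake were tested, with 3 called higher and 2 lower from 0 to 18 h in BMDM-WT, near the 13.4% and 14.0% of all genes. Acsl1, which activates fatty acids, rose from 57.1 ± 3.42 to 1403 ± 141 CPM (4.62 ± 0.08, adjusted p = 3.8e-28), Ch25h, the cholesterol 25-hydroxylase, from 0.130 ± 0.124 to 2.77 ± 0.215 CPM, and Npc2 by 1.28 ± 0.08. Lpl and Plin2 were lower, with log2 fold changes of -1.71 ± 0.13 and -1.40 ± 0.13. At 18 h 2 were called higher in BMDM-Nur77-KO and 0 lower (5.87% and 3.95%), Ch25h, at 18.1 ± 4.10 CPM (2.71 ± 0.18, adjusted p = 8.4e-13), and Acsl1 (0.63 ± 0.07, adjusted p = 2.6e-08). Earlier, both had been called lower in the knockout, Ch25h at 5 h (-0.88) and Acsl1 at 1 and 5 h (-0.70 and -0.59). Of all genes, 1.35% and 3.16% were called lower at 1 and 5 h.

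Of 15 known regulators of these receptors, all tested, 1 was called higher and 2 lower from 0 to 18 h in BMDM-WT (13.4% and 14.0% of all genes). Nr1h3, which encodes the oxysterol receptor LXR alpha, rose by 3.14 ± 0.19 (adjusted p = 4.6e-15). Pparg, a nuclear receptor known to induce Cd36, fell from 57.2 ± 3.66 to 10.1 ± 0.816 CPM (-2.50 ± 0.11, adjusted p = 6.9e-19). At 5 h the log2 fold change of Pparg was -3.50 in BMDM-WT and -2.69 in BMDM-Nur77-KO, and that of Cd36 was -0.10 and -0.39. A link between the 2 genes was not tested. Irf4, at 2 to 5 counts per library at 18 h, was also called lower. At 18 h 3 were called higher in BMDM-Nur77-KO and 0 lower (5.87% and 3.95%), Klf4, at 10.0 ± 1.96 and 49.2 ± 9.03 CPM (2.30 ± 0.13, adjusted p = 5.9e-14), Irf4, at 2 to 5 and 8 to 22 counts per library, and the glucocorticoid receptor gene Nr3c1 (0.71 ± 0.12, adjusted p = 3.5e-05). Irf4 had been called higher in the knockout at 0 h (0.77) and lower at 5 h (-1.03), where the genotypes overlapped. Of 10 sheddases of receptor ectodomains and their partners 9 were tested, with 2 called higher and 3 lower from 0 to 18 h (13.4% and 14.0% of all genes). The inhibitor Timp1 rose by 2.44 ± 0.18 and Rhbdf2, a cofactor of the protease Adam17, by 1.5 ± 0.21, while Timp2 and Adam8 had log2 fold changes of -1.43 ± 0.06 and -1.30 ± 0.10, and Rhbdf1, at 0 to 2 counts per library at 18 h, was called lower. In the knockout at 18 h 1 was called higher and 1 lower (5.87% and 3.95%), Timp1 at 0.79 ± 0.14 and Adam8 at -0.89 ± 0.10.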

How the data were processed

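RNA-seq of 32 BMDM libraries was analysed from a table of estimated counts that the authors deposited. Paired-end reads had been mapped with HISAT2 2.1.0 to mm10 by the authors, who filtered them with SAMtools and counted tags per RefSeq transcript with HOMER, in which each mate counts 0.5, so 28.6% of values were not whole and were rounded here. Whether counting used strand is not given in the sources used here. Of 42361 transcripts, 42203 were named through RefSeq and 65 through GENCODE, and 93 without a name (0.233% to 1.37% of tags) stayed out. The transcript with the highest mean count stood for each of 25067 genes. Isoforms share reads, and the kept transcript held 20.2% of the summed tags of Cd36 and 61.5% of those of Msr1.

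Library totals had a median of 11847140.0 counts. The 11187 genes whose group mean exceeded 1 RPKM anywhere were fitted with 8 group means in edgeR 4.0.16 (limma 3.58.1, R 4.3.3), with TMM factors, the quasi-likelihood test and Benjamini-Hochberg adjustment. Errors of log2 fold changes are standard errors. The script was tested on simulated data.

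Named were the 10 receptors, Nr4a1, up to 3 called genes each way without overlap from every other list at 18 h, and the 3 genes most correlated with each receptor, of which some are not reported here. Members and lists were chosen with earlier results of these data known.

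Alternatives were DESeq2 1.42.0, its size factors, other filters, only the groups compared, a replicate block, other fold limits, summed transcripts and each library left out. A correction for transcript GC content (a lowess offset), leaving out 3 libraries and scaling by library totals were chosen after seeing the data.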

Additional observations from a re-analysis of the deposited data

Results flagged for a closer look

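In 80 groups of 4 libraries, 4 receptor levels held a library far from the other 3 by Dixon's criterion, which chance meets in about 1 in 20 groups. Cd36 was at 3551 CPM in replicate 1 of BMDM-Nur77-KO at 1 h, below the others at 4437 to 4534 CPM. At 5 h, replicate 1 of BMDM-Nur77-KO had the highest Cd36, 4427 CPM against 3145 to 3350 CPM. In replicate 4 of BMDM-Nur77-KO at 18 h, Msr1 was at 1451 CPM against 1024 to 1095 CPM, and Mrc1 at 68.4 CPM against 47.8 to 50.2 CPM.

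The response of Mertk to 18 h of LPS differed between the genotypes by 0.50 on the log2 scale (edgeR interaction, adjusted p = 0.0067). All 4 knockout libraries at 18 h were above all 4 of BMDM-WT. In the 16 fits that left out 1 library the value was 0.43 to 0.57, with an adjusted p of up to 0.024.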

How the results depend on the processing

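Of the 108 receptor values compared, all 108 kept their direction and side of the threshold under filterByExpr and with no filter, and 107 each under DESeq2, its size factors and summed transcripts. Fewer did with the GC correction (97) and scaled by library totals (89). The GC correction reversed 6 values, 2 gained a call and 3 lost one. Library totals reversed 8, with 6 calls gained and 5 lost. Leaving out the 3 libraries of most negative GC trend was tried only for comparisons that include their groups. There 65 values kept their direction and side of the threshold, 3 reversed and 3 lost a call. The replicate numbers showed no steady pairing of the samples. Correlations of deviations were -0.38 to 0.26 between the genotypes and -0.70 to 0.47 between times within a genotype. With the replicate number as a block all 108 values also kept their direction and side of the threshold, with the interaction of Mertk at 18 h at 0.50 (adjusted p = 0.010). Counts of called receptors moved by over 1.5 times in these cases. With no fold limit they were 2 and 5 for genotype at 1 and 5 h, and 2, 8 and 9 in BMDM-WT for 1 h, 5 h and 18 against 5 h. With the limits exchanged they were 2, 1 and 1 for genotype at 0, 5 and 18 h. In fits of only the groups compared they were 1 for genotype at 5 h and 2 for the interaction at 1 h, and with the GC correction 2 for the interaction at 18 h.

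Values that changed sign had not been called. With the GC correction, the genotype difference became 0.03 for Scarb1 and -0.01 for Scarb2 at 0 h, and -0.14 for Mrc1 and -0.33 for Msr1 at 5 h, while in BMDM-WT Msr1 at 1 h became -0.01 and Scarb1 from 5 to 18 h -0.08. Without the 3 libraries of most negative GC trend, Mrc1 and Msr1 became -0.08 and -0.18 at 5 h and Scarb2 0.03 at 18 h. Summed transcripts gave -0.02 for Msr1 at 5 h. Scaling by library totals gave Scarb2 -0.27 and -0.20 in BMDM-WT at 5 and 18 h, -0.35 and -0.36 in BMDM-Nur77-KO, and 0.07 from 5 to 18 h in BMDM-WT, where Mertk also became 0.07. It gave -0.02 for Msr1 at 1 h and 0.01 for Scarb1 from 5 to 18 h in BMDM-Nur77-KO. Mrc1 at 5 h against 0 h in BMDM-Nur77-KO became 0.07 under DESeq2, 0.07 with its size factors and 0.04 with only the groups compared. The cause was not tested. With 1 library left out, genotype differences that changed sign spanned -0.04 to 0.13 for Scarb2 at 0 h, -0.01 to 0.14 for Cd163 at 1 h, -0.08 to 0.13 for Mrc1 and -0.18 to 0.13 for Msr1 at 5 h, and -0.31 to 0.74 for Cd163 and -0.04 to 0.02 for Scarb2 at 18 h, and the value of Mrc1 at 5 h in BMDM-Nur77-KO spanned -0.14 to 0.09. Counts of 0 to 4 limit Cd163 at 18 h, and 3 to 24 counts limit Olr1 at 0 h.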
